A study of Mus musculus with 6 samples.

Results

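The insulin-like growth factor (IGF) axis of the mouse kidney is described here through 5 genes: the receptors Igf1r and Insrr, the binding proteins Igfbp1 and Igfbp5, and the protease Pappa2. They were picked by name, as IGF-axis members of a deposited table that counts 456 genes in 22154 single kidney cells. Their counts were summed per library and per cell class of the authors' annotation, and the share of cells with at least 1 count (positive cells) was taken beside each sum. All mice were wild-type (WT in the sample titles) C57BL/6J animals aged 16 weeks on a gel diet with 104 µmol sodium per kcal. The furosemide group got the diuretic in that diet at 70 mg/kg body weight for 1 week, and the vehicle group got the diet without it. Each group held 3 libraries, numbered 2, 4 and 6 for furosemide and 1, 3 and 5 for vehicle.

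In the IGF axis, binding proteins hold IGFs in the extracellular space, proteases cut the binding proteins and free the ligand, and the free ligand acts through the tyrosine kinase Igf1r. Pappa2 is a metalloprotease known to cut Igfbp5 and Igfbp3, and in the kidney it is known from the macula densa, the plaque of thick ascending limb cells that senses tubular salt. Insrr, the insulin receptor-related receptor, is known to be activated by alkaline medium rather than by insulin or IGFs. Furosemide blocks the sodium-potassium-chloride cotransporter Slc12a1 of the thick ascending limb (TAL), which the macula densa also uses.

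Libraries held 3051 to 4439 cells with furosemide and 3316 to 4082 cells with vehicle, and median counts per cell ran from 1218 to 1407 and from 1073 to 1539.5. Each group had 11077 cells after the authors' own equalization. Across libraries, 196 cell barcodes occurred more than once, with 8 to 18 shared by any pair of libraries. TAL cells were 11.7, 15.7 and 12.4% of cells in furosemide libraries 2, 4 and 6, against 23.5, 24.8 and 22.8% in vehicle libraries 1, 3 and 5. Most class names matched their marker genes: those of the TAL, the distal convoluted tubule, the connecting tubule, type B intercalated cells, podocytes and immune cells were highest in the classes labelled TAL, DCT, CNT or DCT2, BIC, Podocytes/Glom and Immune. None of 4 endothelial markers was in the panel. The class labelled OMCD principal held type A intercalated markers despite its name. Slc4a1 and Aqp6 were each found in 99.4% of its Insrr-negative cells, and in 78.3 and 80.0% of its Insrr-positive cells (means over 6 libraries). Aqp2, the water channel of principal cells, was found in 18.1% of the Insrr-negative and 16.7% of the Insrr-positive cells. It was at most 312 CPM in any class, in the class named mystery cells, so its low share does not settle the name. Nothing says that the libraries came from separate animals, so p-values measure only the spread between these samples, which may be technical.

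Levels are given as CPM, the gene's counts scaled to a common total of panel counts, so they can be compared between classes for 1 gene but not between genes. Fold changes and their standard errors (SE) come from edgeR's quasi-likelihood fit per class over all panel genes, with TMM scaling. A difference was called where p, adjusted in each class by the method of Benjamini and Hochberg, lay under 0.05. Of 75 pairs of a member and a class, 31 had enough counts to be tested, 44 did not, and 1 was called: Pappa2 in TAL. A further 7 pairs had an unadjusted p under 0.05 and did not pass, so that 8 pairs in all lay under it. How many of all tested genes lay under that unadjusted limit was not counted. The classes differed widely in how many of all tested genes were called. That share was 4.73% in TAL, 4.73% in DCT, 5.08% in CNT, 1.42% in DCT2, 1.88% in Thin Limb and 2.29% in the class named mystery cells. It was 0.408% in BIC, 0.418% in Podocytes/Glom and 0.0% in the other 7 classes, among them all 3 proximal classes. The plot of levels by class and the plot of fold changes give all 5 genes side by side.

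**Figure D1:**
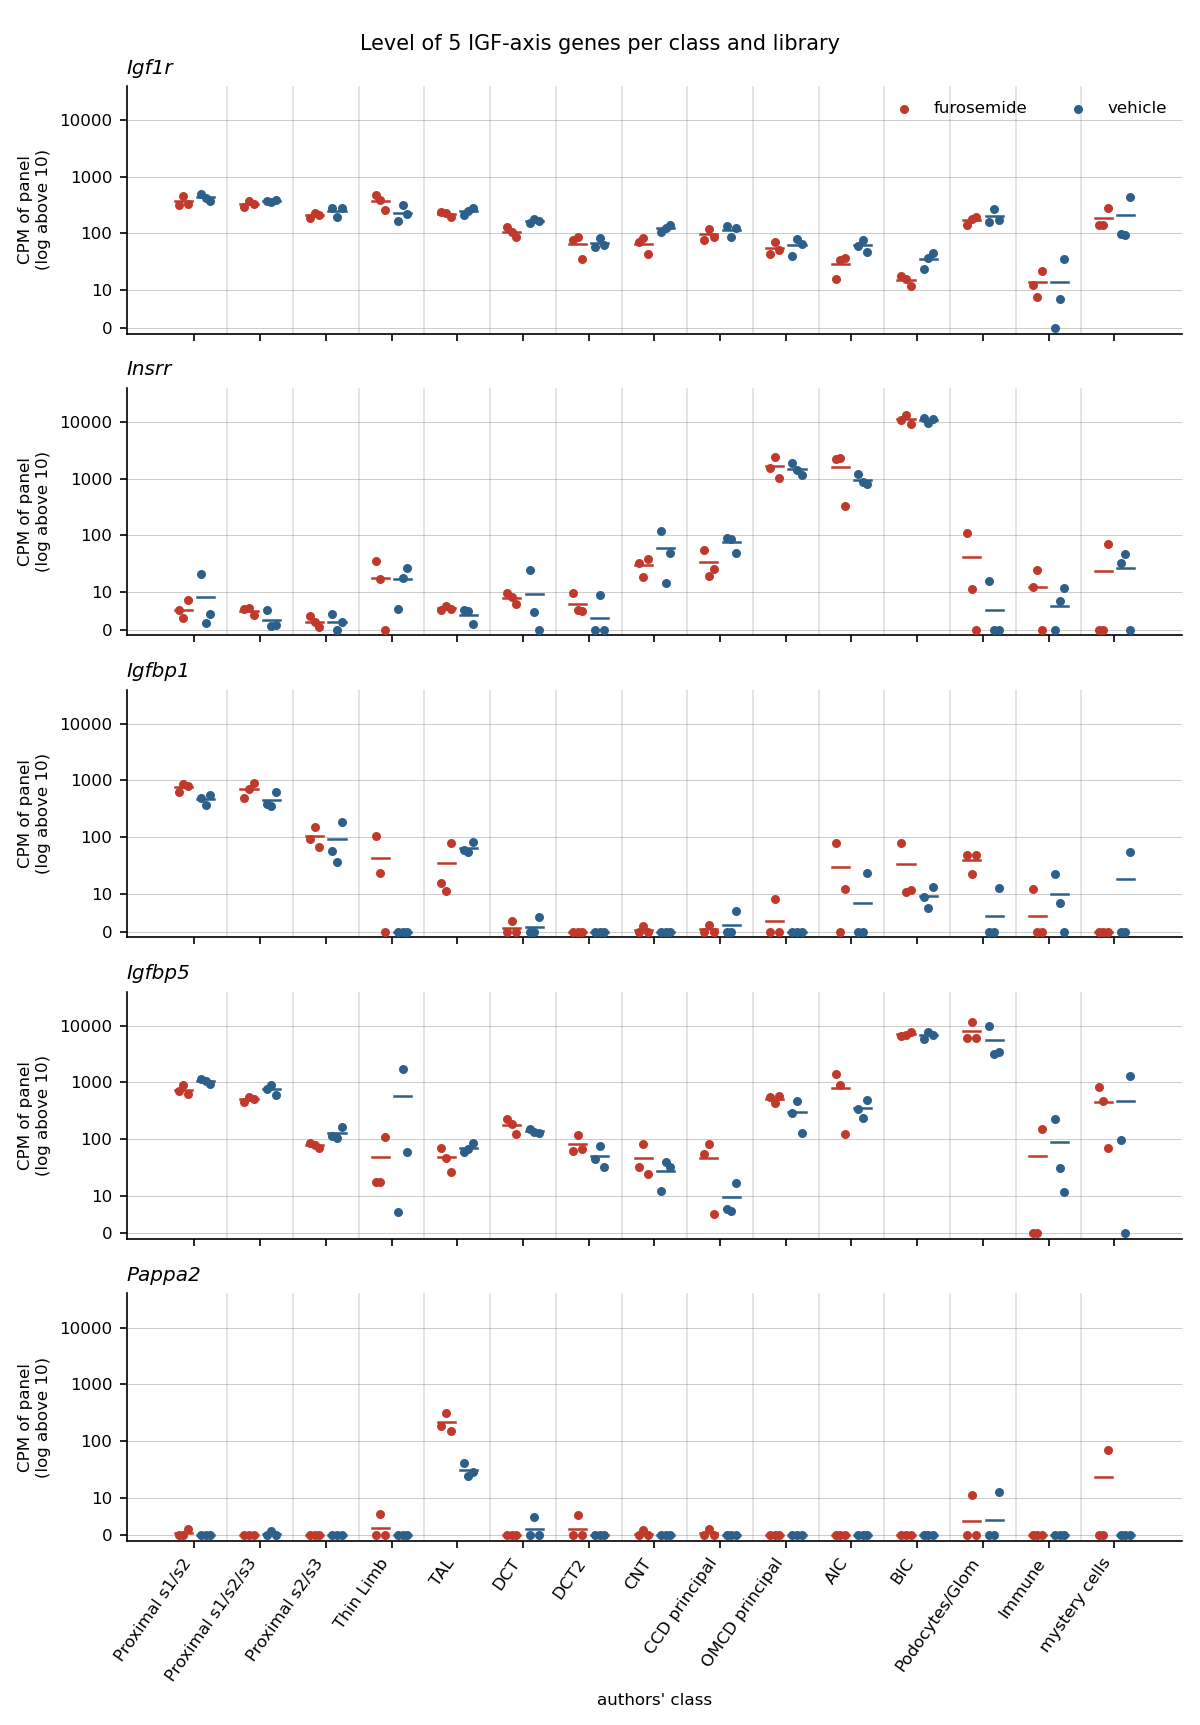
Level of each gene (CPM of panel counts, axis linear up to 10 and log above) in each of the 15 classes, with 1 point per library, furosemide in red left of vehicle in blue, and a bar at the mean of 3 libraries. Pappa2 lies above 20 CPM in every library of TAL, Insrr lies between 9174 and 13169 CPM in the 6 libraries of BIC, and Igf1r is spread over the tubule.

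**Figure D2:**
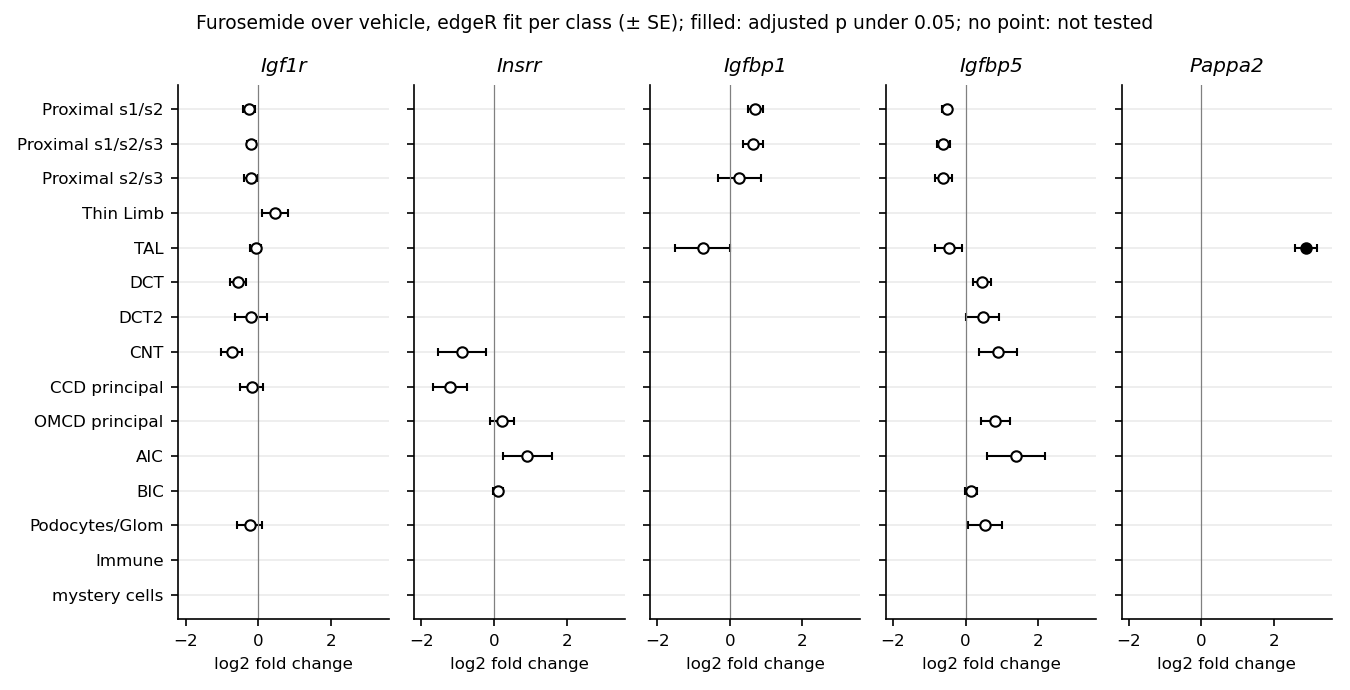
Log2 fold change of furosemide over vehicle (horizontal axis, ± SE from edgeR) for each gene in each class with enough counts. Only Pappa2 in TAL, at 2.89, has a filled marker, meaning an adjusted p under 0.05; Igfbp5 lies below 0 in all 3 proximal classes and in TAL.

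Pappa2, the protease, was found almost only in TAL and was higher there with furosemide. Of its 758 counts, 747 (98.5%) lay in 83 of 4122 TAL cells, and the other 11 counts lay in 10 of 18032 cells of all other classes. In TAL its level was 186.5, 312.6 and 149.1 CPM in furosemide libraries 2, 4 and 6, against 40.8, 24.2 and 28.0 CPM in vehicle libraries 1, 3 and 5. All furosemide libraries lay above all vehicle libraries, which was so for 6.94% of the genes tested in TAL. The log2 fold change was 2.89 ± 0.30 SE (edgeR, adjusted p = 0.0061), with means of 216 ± 85.6 CPM with furosemide and 31.0 ± 8.69 CPM with vehicle (SD, n = 3 each).

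Both the share of TAL cells with Pappa2 and the mean counts per such cell were higher in every furosemide library than in every vehicle library. Positive cells were 11 of 356, 23 of 696 and 17 of 446 TAL cells in furosemide libraries 2, 4 and 6, against 13 of 961, 10 of 823 and 9 of 840 in vehicle libraries 1, 3 and 5. This gave 3.40 ± 0.37% with furosemide and 1.21 ± 0.14% with vehicle (SD, n = 3 each). With each cell thinned to 500 counts, the shares were 2.53, 3.02 and 2.96% with furosemide and 1.26, 0.608 and 0.483% with vehicle. They did not overlap, which gives a two-sided exact permutation p of 0.1, the smallest that 3 against 3 libraries allow, and 0.833 after adjustment over 75 member and class pairs. How often such shares are apart over all panel genes was not counted. This limit holds for every share of cells given below. Counts per positive cell were 9.82, 17.0 and 6.47 in furosemide libraries 2, 4 and 6, against 4.85, 3.90 and 3.89 in vehicle libraries 1, 3 and 5. How often counts per positive cell are apart over all panel genes was not counted either.

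In terms of the group means, the level differed 6.97-fold, the share of positive TAL cells 2.80-fold and the counts per positive cell 2.64-fold. A positive TAL cell had a median of 8 counts with furosemide and of 2 counts with vehicle. Cells with 10 or more counts numbered 24 of 51 positive cells with furosemide and 5 of 32 with vehicle, and the highest single cell had 46 counts with furosemide and 17 with vehicle. The share of TAL cells is measured against a class that made up a smaller part of the furosemide libraries. Set against all cells of a library, positive TAL cells were 0.361, 0.518 and 0.474% in furosemide libraries 2, 4 and 6, against 0.318, 0.302 and 0.245% in vehicle libraries 1, 3 and 5. These did not overlap either, and the means differed 1.56-fold.

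In the class that served as background, Immune, 0 of 546 cells had a Pappa2 count, which allows a share of up to 0.549% (3 counts, counting error only). Immune cells were shallower, with library medians of 573 to 1007 counts per cell against 1328 to 1764 in TAL. Of the markers of other cells counted in TAL, the sum of 4 connecting tubule genes, of 5 listed, was 1155 to 1471 CPM with furosemide and 1104 to 1122 CPM with vehicle, without overlap. Most of that sum was S100g, which was not called, while Calb1 rose in TAL to 123, 135 and 97.6 CPM with furosemide, against 42.7, 41.5 and 36.1 CPM with vehicle (1.66 ± 0.19 SE, edgeR adjusted p = 0.0070). This was not particular to TAL. The log2 fold change of Calb1 was also positive in DCT (0.79), CNT (1.82) and the 3 proximal classes (1.51 to 2.51). Of these classes it was called in CNT alone (edgeR, adjusted p = 0.0122). The sum of 3 immune genes, of 6 listed, was 13.6 to 35.1 CPM with furosemide and 29.1 to 98.5 CPM with vehicle, with overlap. The part of these cells in the Pappa2 level was not tested, while Pappa2 itself was at 0 in Immune and had 1 count in CNT.

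Summed over all cells of a library, Pappa2 was at 21.9, 52.0 and 21.4 CPM with furosemide, against 9.98, 6.89 and 7.47 CPM with vehicle (log2 fold change 2.04 ± 0.42 SE, edgeR adjusted p = 0.0490). At this level 4.46% of genes were called. That call was lost in 10 of 14 alternative fits, among them each fit without 1 library (adjusted p 0.0579 to 0.201). In such a whole-sample sum, fewer cells of a type and less RNA per cell cannot be told apart.

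**Figure D3:**
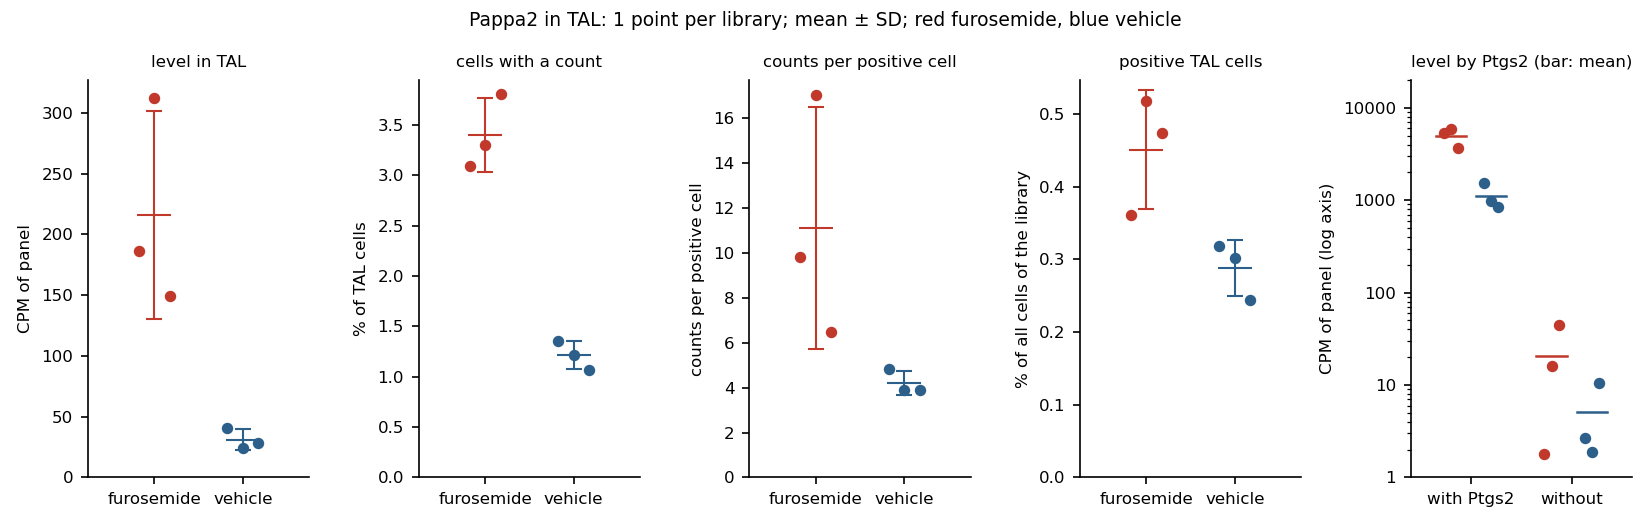
Pappa2 in TAL, 1 point per library with mean ± SD (n = 3 per group), furosemide in red left of vehicle in blue; panels from left to right give CPM, percent of TAL cells with a count, counts per positive cell, positive TAL cells as percent of all cells, and CPM in TAL cells with and without a Ptgs2 count (log axis, bar at the mean). Groups are apart in the first 4 panels and in Ptgs2-positive cells, while Ptgs2-negative cells overlap between groups. How often panel genes are so apart was counted for the CPM of the first panel alone.

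The Pappa2-positive TAL cells carried the cyclooxygenase gene Ptgs2, the other macula densa marker measured, which over all classes was highest in Immune (6207 CPM). Of 6 macula densa genes listed for this check, the panel held only these 2 and lacked Nos1, Avpr1a, Mcub and Robo2. Ptgs2 stood between 1993 and 4971 CPM in the Pappa2-positive TAL cells and between 9.76 and 46.1 CPM in Pappa2-negative ones. It was higher in the positive cells in 6 of 6 libraries, and 58.8 to 90.9% of them had a Ptgs2 count. Slc12a1, the furosemide target, did not separate these cells, with a median ratio of positive to negative cells of 0.95. Lower in Pappa2-positive cells in 6 of 6 libraries were the secreted TAL proteins Umod (median ratio 0.27) and Egf (0.39) and the claudin Cldn10 (0.42). Higher in 6 of 6 were Fxyd2, a subunit of the sodium pump (3.005), the Wnt antagonist Sfrp1 (7.10) and the aspartic protease Napsa (20.6). These 3 genes and Egf were not among the listed markers and were added after the data had been seen. Cldn16 was higher in 3 of 6 (0.90). These ratios are descriptions, since the cells were chosen by a count of Pappa2 and come from 9 to 23 cells per library.

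Of the other members, Igfbp5 was at 223 ± 106 CPM in Pappa2-positive and 55.5 ± 23.0 CPM in Pappa2-negative TAL cells (SD, n = 6 libraries), on 1 to 12 counts per library in the positive cells. It was higher in 5 of 6 libraries. Igfbp1 was at 0 in the positive cells of all 6 libraries. Igf1r was at 192 ± 60.2 CPM in Pappa2-positive and 236 ± 30.9 CPM in Pappa2-negative TAL cells. Pappa2-positive cells had library medians of 918 to 1556 counts per cell, against 1329 to 1781 in Pappa2-negative ones.

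The same difference between groups was seen within the Ptgs2-positive TAL cells, a split added after the data had been seen and given without a test. Pappa2 there was at 5389, 5902 and 3676 CPM in furosemide libraries 2, 4 and 6, against 1545, 991 and 838 CPM in vehicle libraries 1, 3 and 5. How often other panel genes are apart within the Ptgs2-positive cells was not counted. Pappa2-positive cells among the Ptgs2-positive ones were 10 of 12, 19 of 35 and 10 of 14 with furosemide, against 11 of 26, 9 of 19 and 7 of 16 with vehicle. Ptgs2-positive cells themselves were 3.37, 5.03 and 3.14% of TAL cells with furosemide and 2.71, 2.31 and 1.90% with vehicle, which did not overlap. As a share of all cells they did overlap, at 0.393, 0.788 and 0.390% with furosemide and 0.637, 0.573 and 0.435% with vehicle. Ptgs2 over all TAL cells had a log2 fold change of 0.68 ± 0.34 SE and was not called (edgeR, adjusted p = 0.41). In Ptgs2-negative TAL cells Pappa2 was at 1.79, 16.0 and 44.7 CPM with furosemide and 2.65, 1.90 and 10.6 CPM with vehicle, so that groups overlapped. In furosemide library 4 the Ptgs2-positive cells were the most numerous, and that library also had the highest Pappa2 level.

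The shares of TAL cells with a count of 1 or both claudins also differed between groups. Cells with a count of both Cldn16 and Cldn10 were 68.5, 70.3 and 67.7% of TAL cells in furosemide libraries 2, 4 and 6, against 48.3, 58.6 and 55.8% in vehicle libraries 1, 3 and 5. Cells with Cldn10 alone were 16.0, 14.5 and 12.1% with furosemide and 37.0, 29.6 and 31.0% with vehicle. Cldn16, a claudin of the cortical limb, rose in TAL as a whole (1.06 ± 0.20 SE, edgeR adjusted p = 0.043). A cell with more Cldn16 is more often counted among those with both. These shares therefore cannot tell a change in the kinds of cells from a change in Cldn16 per cell. Within the cells with both claudins, a split likewise added after the data had been seen and given without a test, Pappa2 was at 257, 360.0 and 195 CPM with furosemide and 77.1, 34.2 and 25.6 CPM with vehicle, without overlap. How often other panel genes are apart within these cells was not counted. The part of these shares in the Pappa2 value over all TAL cells was not tested.

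Igfbp5, a secreted and matrix-bound binding protein, was highest in BIC and in Podocytes/Glom. It averaged 6917 ± 733 CPM in BIC and 6737 ± 3398 CPM in Podocytes/Glom over 6 libraries (SD), and these overlapped. The next classes were Proximal s1/s2 at 887 ± 195 CPM and Proximal s1/s2/s3 at 629 ± 171 CPM, and no library of theirs reached those of the first pair. In BIC 591 of 626 cells were positive, against 0 to 5.77% of Immune cells per library. In BIC the level was 6707, 6766 and 7789 CPM with furosemide and 5818, 7701 and 6723 CPM with vehicle, with a log2 fold change of 0.15 ± 0.16 SE (edgeR, adjusted p = 0.69). In Podocytes/Glom it was 6166, 11538 and 6125 CPM with furosemide and 9972, 3164 and 3460 CPM with vehicle (0.54 ± 0.46 SE, adjusted p = 0.85). Podocytes/Glom had 1 library in each group well above the rest, furosemide library 4 and vehicle library 1. In that class 229 of 514 cells were positive, and the podocyte gene Podxl was found in 75.4 ± 11.6% of them and in 83.7 ± 18.1% of Igfbp5-negative cells (SD, n = 6 libraries). The renin gene Ren1 of juxtaglomerular cells was found in 9.49 ± 4.55% of the positive and 3.82 ± 2.71% of the negative cells.

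In all 3 proximal classes Igfbp5 was lower in every furosemide library than in every vehicle library, yet no class passed. In Proximal s1/s2 it was at 699.9, 885 and 631 CPM in furosemide libraries 2, 4 and 6, against 1133, 1051 and 923 CPM in vehicle libraries 1, 3 and 5. The log2 fold change was -0.52 ± 0.13 SE (edgeR, adjusted p = 0.43). Levels in Proximal s1/s2/s3 were 453, 541 and 510.5 CPM with furosemide and 775, 897 and 598 CPM with vehicle (-0.62 ± 0.18 SE, adjusted p = 0.64). In Proximal s2/s3 it was at 86.1, 76.9 and 68.3 CPM with furosemide and 114, 103 and 159.9 CPM with vehicle (-0.61 ± 0.23 SE, adjusted p = 0.56). Such non-overlap toward lower values was found in 3.66, 3.57 and 6.53% of the genes tested in these classes, in the same order, and 0.0% of genes were called in any of them. Among marker sums, 3 distal convoluted tubule genes in Proximal s2/s3 stood at 122 to 165 CPM with furosemide and 79.9 to 98.3 CPM with vehicle, and their part in the Igfbp5 value was not tested.

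The 3 classes come from the same 6 libraries, so that they are not separate evidence. Summed over the proximal classes, Igfbp5 was at 271, 254 and 319 CPM with furosemide and 439, 591 and 467 CPM with vehicle. The log2 fold change was -0.72 ± 0.14 SE (edgeR, adjusted p = 0.24); DESeq2 gave -0.69 with an adjusted p of 0.0021 on the same sums. At this level 10.4% of genes were lower without overlap and 0.299% were called by edgeR. The sum also differs in make-up: Proximal s2/s3, where Igfbp5 is low, gave 60.6, 69.2 and 49.5% of proximal counts with furosemide and 58.4, 42.7 and 45.9% with vehicle. The part of this make-up in the summed value was not tested. A class can also be mixed within itself, as in the authors' finer annotation of Proximal s1/s2/s3. Igfbp5 averaged 165 CPM with furosemide and 261 CPM with vehicle in its gr1, and 591 and 931 CPM in its gr2. The part of make-up within a class was not tested either.

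The share of positive cells moved the same way in Proximal s2/s3, at 13.2, 14.9 and 9.56% with furosemide and 17.3, 20.2 and 16.0% with vehicle. The groups did not overlap there with or without thinning (two-sided exact permutation p = 0.1, the smallest possible). The same was not counted for all panel genes. In Proximal s1/s2 the unthinned shares overlapped, at 37.1, 42.7 and 36.6% with furosemide and 47.6, 55.3 and 40.9% with vehicle. In Proximal s1/s2/s3 they did not overlap unthinned, at 41.4, 40.6 and 40.2% with furosemide and 54.7, 60.2 and 46.2% with vehicle, but thinned shares did. Vehicle library 3 had the highest share in each of the 3 classes, and also the deepest cells in Proximal s1/s2 and Proximal s1/s2/s3.

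Beside BIC and Podocytes/Glom, given above, 5 further classes had positive fold changes of Igfbp5, and none passed. The values in these 5 were 0.46 ± 0.24 SE in DCT, 0.48 ± 0.46 in DCT2, 0.89 ± 0.54 in CNT, 0.82 ± 0.40 in the class labelled OMCD principal and 1.40 ± 0.80 in AIC, the type A intercalated class. Adjusted p ran from 0.42 to 0.76 in these 5 classes (edgeR). In DCT the libraries overlapped, at 223, 182 and 124 CPM with furosemide and 148, 135 and 128 CPM with vehicle. In TAL it was at 70.8, 47.0 and 25.8 CPM with furosemide and 58.3, 65.7 and 86.5 CPM with vehicle (-0.47 ± 0.37 SE, adjusted p = 0.56). Shares of positive cells per library in CCD principal (0.455 to 2.72%) lay within the range of Immune (0 to 5.77%) and those in CNT (2.07 to 6.52%) close to it, and both are read as background. Among Pappa2-negative TAL cells the shares were 1.86 to 7.38% per library. These overlapped the range of Immune, so TAL was not clear of background either.

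Over all cells of a library, Igfbp5 was lower without overlap in CPM, at 507, 476 and 506 CPM with furosemide and 535, 572 and 535 CPM with vehicle. Such non-overlap was common at this level, where 16.9% of the genes tested were lower in every furosemide library. After TMM scaling the fold change was -0.05 ± 0.12 SE, and it was not called (edgeR, adjusted p = 0.90). A single cell set 1 value: in Thin Limb, vehicle library 3 stood at 1691 CPM, with 257 of its 282 counts in 1 cell, and the other 5 libraries lay between 5.60 and 111 CPM.

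Igfbp1, a secreted binding protein whose gene is known from liver to be repressed by insulin, was a proximal gene in these data. It averaged 619 ± 192 CPM in Proximal s1/s2 and 575 ± 214 CPM in Proximal s1/s2/s3 (SD, n = 6 libraries), which overlapped. Proximal s2/s3 followed at 98.6 ± 58.8 CPM, 5.83-fold below the second class and without overlap with it. TAL was next at 50.3 ± 30.5 CPM, while DCT, CNT and CCD principal averaged 1.10, 0.234 and 1.21 CPM and DCT2 had no count. The 3 proximal classes held 30.8, 45.4 and 16.3% of all Igfbp1 counts.

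Igfbp1 in Proximal s1/s2 was at 635, 870 and 801 CPM in furosemide libraries 2, 4 and 6, against 485, 364 and 557 CPM in vehicle libraries 1, 3 and 5. All furosemide libraries were higher, as for 5.13% of the genes tested in that class, but the difference did not pass (0.70 ± 0.21 SE, edgeR adjusted p = 0.46). The levels in Proximal s1/s2/s3 were 491, 699 and 915 CPM with furosemide and 378, 349 and 617 CPM with vehicle, and groups overlapped (0.63 ± 0.28 SE, adjusted p = 0.69). In Proximal s2/s3 the groups overlapped fully, at 93.2, 153 and 66.8 CPM with furosemide and 56.5, 36.3 and 186 CPM with vehicle (0.26 ± 0.59 SE, adjusted p = 0.93). Igfbp1 and Igfbp5 thus had fold changes of opposite sign in these 3 classes, as the plot of both genes by library shows, and neither was called. In the finer annotation of the authors, used after the data had been seen, this was not so in Proximal s1/s2/s3 gr1, a class of 531 cells. Igfbp1 there averaged 154 CPM with furosemide and 241.5 CPM with vehicle (-0.60 ± 0.30 SE, edgeR adjusted p = 0.61), and Igfbp5 averaged 165 CPM with furosemide and 261 CPM with vehicle (-0.57 ± 0.20 SE, adjusted p = 0.47).

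Cells rich in Igfbp1 were few. The median positive cell had 1 count in either group, and cells with 10 or more counts in Proximal s1/s2 were 12 of 1443 with furosemide and 3 of 1523 with vehicle. There were 28 of 1313 with furosemide and 11 of 1460 with vehicle in Proximal s1/s2/s3. The share of Proximal s1/s2 cells with a count was 26.0, 32.1 and 35.1% with furosemide and 25.1, 20.04 and 23.9% with vehicle, against 0.549% of Immune cells. Thinned to 500 counts per cell, these shares overlapped, at 15.5, 22.1 and 23.7% with furosemide and 15.7, 10.6 and 19.2% with vehicle.

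**Figure D4:**
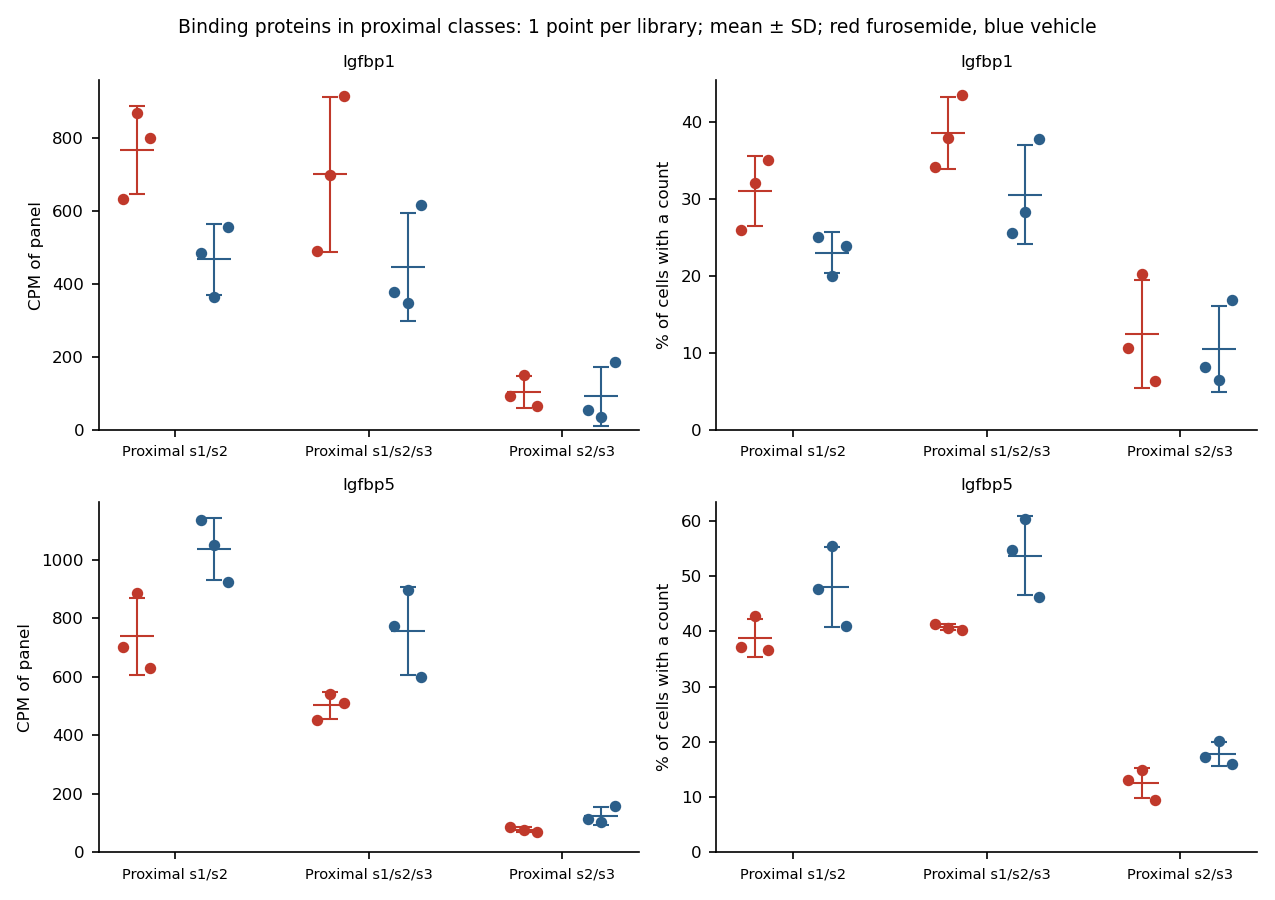
Igfbp1 (upper row) and Igfbp5 (lower row) in the 3 proximal classes, as CPM of panel counts (left) and as percent of cells with a count (right), with 1 point per library, mean ± SD (n = 3 per group), furosemide in red left of vehicle in blue. Igfbp5 is lower with furosemide in CPM in all 3 classes, Igfbp1 is higher without overlap in Proximal s1/s2 alone, and Proximal s2/s3 is low for both.

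In TAL Igfbp1 was at 15.5, 11.2 and 78.6 CPM in furosemide libraries 2, 4 and 6, against 60.2, 54.5 and 81.7 CPM in vehicle libraries 1, 3 and 5. Furosemide library 6 stood apart from its group, and 24 of its 58 counts were in 1 cell. With all libraries the log2 fold change was -0.74 ± 0.76 SE (edgeR, adjusted p = 0.65). Without library 6 it was -2.27 ± 0.34 SE (adjusted p = 0.0188). The share of positive TAL cells overlapped, at 1.97 to 6.73% with furosemide and 5.31 to 6.55% with vehicle (two-sided exact permutation p = 0.4). Thinned to 500 counts per cell it did not, at 0.843, 0.576 and 1.36% with furosemide and 1.996, 2.80 and 2.77% with vehicle (exact permutation p = 0.1, 0.833 after adjustment). Of the 75 member and class pairs, 9 reached that smallest p in thinned shares, 3 with furosemide higher and 6 with it lower. Thinned to 1000 counts the TAL shares overlapped again, at 1.03 to 4.76% with furosemide and 2.94 to 5.57% with vehicle (exact permutation p = 0.3). The summed level of 4 proximal markers in TAL, of 7 listed, was 110.0 to 118 CPM with furosemide and 109 to 153 CPM with vehicle. Their part in the Igfbp1 value was not tested.

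Igf1r, the receptor of the axis, was measured over most of the tubule with a graded order. It was highest in Proximal s1/s2 at 401 ± 73.1 CPM, followed by Proximal s1/s2/s3 (352), Thin Limb (304), TAL (235) and Proximal s2/s3 (231). It was lower in the class named mystery cells (197), Podocytes/Glom (186), DCT (138), CCD principal (105), CNT (94.9) and DCT2 (67.2), and lowest in the class labelled OMCD principal (58.0), AIC (45.1), BIC (25.3) and Immune (14.2 CPM). Each class overlapped with its neighbour in this order, so that no step in it exceeded the spread over 6 libraries. A positive cell rarely held more than a few counts: in TAL 457 of 1498 cells were positive with furosemide and 839 of 2624 with vehicle, with a median of 1 count and a highest cell of 5 in both groups. Among Immune cells, the class of lowest share, 1.28% were positive.

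The fold change of Igf1r was negative in 9 of the 10 classes tested, and none passed. The 10 classes share 6 libraries, so that this count is not a test. In DCT, Igf1r was at 129, 108 and 85.0 CPM in furosemide libraries 2, 4 and 6, against 156, 182 and 169 CPM in vehicle libraries 1, 3 and 5 (-0.56 ± 0.23 SE, edgeR adjusted p = 0.30). In CNT it was at 70.9, 84.2 and 42.9 CPM with furosemide and 107, 124 and 140.0 CPM with vehicle (-0.74 ± 0.28 SE, adjusted p = 0.18). Groups did not overlap in either class. Non-overlap toward lower values was common there, at 12.7% of the genes tested in DCT and 18.8% in CNT. Proximal markers, 4 of 7 listed, summed in DCT to 106 to 143 CPM with furosemide and 144 to 184 CPM with vehicle. In CNT, 4 TAL markers summed to 488 to 632 CPM with furosemide and 839 to 967 CPM with vehicle. These sums were lower without overlap, and Igf1r was higher in those segments than in DCT and CNT. The sum of 3 DCT markers in CNT went the other way, at 456 to 539 CPM with furosemide and 124 to 206 CPM with vehicle, and DCT also had more Igf1r than CNT. The part of these cells in the Igf1r values was not tested.

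In TAL, where Pappa2 was called, Igf1r was at 240.0, 229 and 194 CPM with furosemide and 215, 251 and 283 CPM with vehicle (-0.07 ± 0.16 SE, adjusted p = 0.83). Thin Limb was the exception in sign, at 477, 390.4 and 258 CPM with furosemide and 168, 312 and 217 CPM with vehicle (0.46 ± 0.35 SE, adjusted p = 0.63). Over all cells Igf1r was lower without overlap, at 177, 205 and 193 CPM with furosemide and 236, 235 and 263 CPM with vehicle, and it was not called (-0.26 ± 0.11 SE, adjusted p = 0.31). As given for Igfbp5, 16.9% of the genes tested over all cells were lower without overlap. TAL, a class with more Igf1r than most, made up 11.7 to 15.7% of cells with furosemide and 22.8 to 24.8% with vehicle, and the part of this make-up in the Igf1r sum was not tested.

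Insrr, which is known from bicarbonate-secreting type B intercalated cells, was found in 626 of 626 BIC cells and averaged 10990.3 ± 1416 CPM there (SD, n = 6 libraries). BIC held 85.2% of all its counts. It was 7.03-fold lower in the class labelled OMCD principal (1563 ± 507 CPM), which overlapped with AIC (1293 ± 808 CPM). Between AIC and the next class, CCD principal at 54.3 ± 29.5 CPM, libraries did not overlap and the means differed 23.8-fold. In proximal classes and TAL, 0 to 1.78% of cells per library were positive, within the 0 to 2.70% of Immune cells, and these are read as background.

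With furosemide the level in BIC was 11053, 13169 and 9174 CPM, against 11702, 9782 and 11062 CPM with vehicle (0.11 ± 0.15 SE, edgeR adjusted p = 0.76). In AIC it was 2230, 2309 and 326 CPM in furosemide libraries 2, 4 and 6, against 1205, 878 and 808 CPM in vehicle libraries 1, 3 and 5 (0.91 ± 0.67 SE, adjusted p = 0.76). Here furosemide library 6 was the lowest of all 6 and the other furosemide libraries were the highest. In CCD principal it was at 54.6, 19.3 and 25.9 CPM with furosemide and 91.1, 85.3 and 49.6 CPM with vehicle, with overlap (-1.20 ± 0.47 SE, adjusted p = 0.24). Single cells with 13 counts gave a large part of the 28 and 29 counts of vehicle libraries 1 and 3.

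Within AIC and the class labelled OMCD principal, Insrr-positive cells were a minority and had Slc26a4 and Igfbp5 more often than Insrr-negative ones. In AIC 56 of 340 cells were Insrr-positive. Slc26a4, the chloride-bicarbonate exchanger pendrin of type B cells, was found in 65.8 ± 14.97% of them and in 4.56 ± 3.07% of Insrr-negative AIC cells (SD, n = 6 libraries). Igfbp5 was found in 54.9 ± 15.5% of Insrr-positive and 2.19 ± 3.42% of Insrr-negative AIC cells. The type A anion exchanger Slc4a1 was found in 56.9 ± 22.0% of the positive and 99.8 ± 0.60% of the negative cells. Slc4a9, another type B gene, did not separate the cells of AIC, at 98.5 ± 3.71% of the positive and 98.2 ± 1.77% of the negative cells. Insrr-positive AIC cells were deeper, with a median of 1998 counts against 886.5, and the part of depth in this was not tested.

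In the class labelled OMCD principal, 168 of 373 cells were Insrr-positive. Slc26a4 was found in 30.9 ± 10.4% of them and 3.41 ± 3.02% of the Insrr-negative cells, and Igfbp5 in 20.7 ± 6.96% of the positive and 3.97 ± 2.77% of the negative cells. Slc4a9 was found in 90.6 ± 8.40% of the positive and 78.6 ± 12.0% of the negative cells, so that most cells of either kind had it. Median depth was closer here, at 1814 counts in positive and 1597 in negative cells. In BIC, Insrr and Igfbp5 were found together: 591 cells had both, and in the 35 BIC cells without Igfbp5 Insrr stood at 11735 CPM, against 10971 CPM in those with it. The classes were clustered on these genes, so these shares describe the clusters and are no test.

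**Figure D5:**
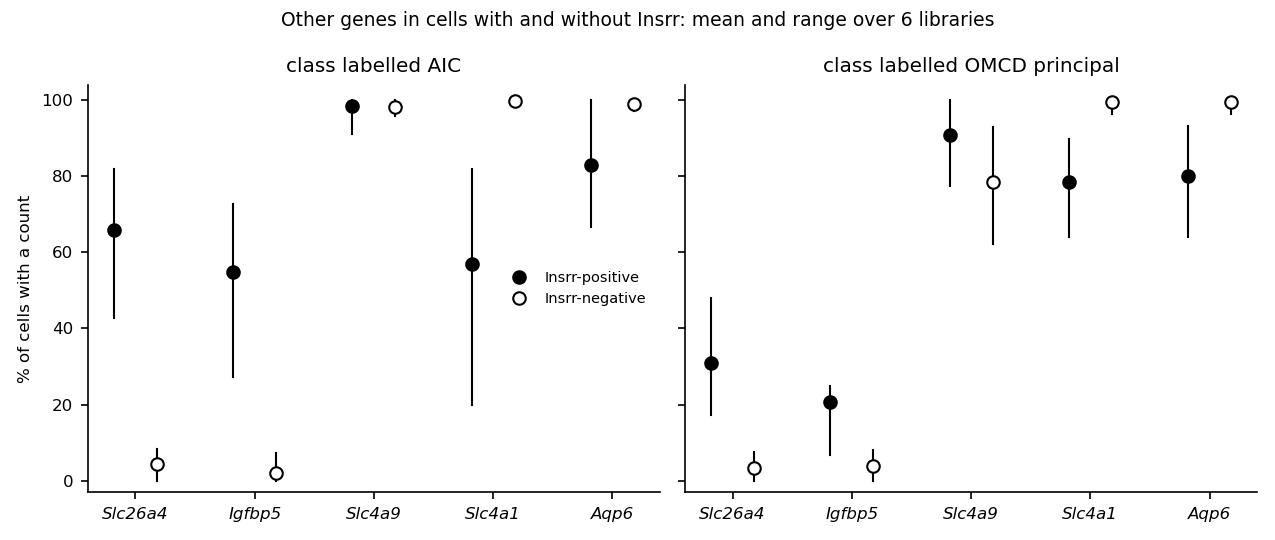
Percent of cells with a count of 5 other genes among Insrr-positive (filled) and Insrr-negative (open) cells of the classes labelled AIC and OMCD principal, as mean and range over 6 libraries of both groups. Slc26a4 and Igfbp5 are more frequent in Insrr-positive cells of both classes, while Slc4a1 and Aqp6 are near 100% in Insrr-negative cells.

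Whether the treatment effect of a member differed between segments was tested for all 15 pairs of the summed proximal classes, TAL, DCT, DCT2, CNT and CCD principal. Of 54 member tests none passed (edgeR interaction with library as block), while 1.47% of all gene tests in these pairs were called. In the same tests, 11 of the 54 had an unadjusted p under 0.05. The share of all gene tests under that unadjusted limit was not counted, and the pairs share classes and libraries. Igfbp5 in DCT against the proximal sum had the smallest p of the members, with a difference of 0.96 ± 0.22 SE in log2 fold change (adjusted p = 0.175). Igfbp5 differences to the proximal sum were also positive for DCT2 (1.37 ± 0.42), CNT (1.73 ± 0.57) and CCD principal (3.41 ± 0.93), with adjusted p of 0.24, 0.31 and 0.30, although the last 2 classes were at background. Without furosemide library 6, 2 of the 54 passed: Igfbp5 in CCD principal (3.77, adjusted p = 0.0395) and Igfbp1 in TAL (-2.73, adjusted p = 0.0085), both against the proximal sum. For Pappa2 the comparison class had so few counts that the 5 differences between TAL and another class carried SE of 1.12 to 2.26, and the largest was 6.53 ± 2.26 against DCT (adjusted p = 0.14). The call in TAL is thus not shown to differ from the effect elsewhere by these tests, while 98.5% of the counts lay in TAL.

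A wider list of 44 IGF and insulin genes was also counted, of which 22 were in the panel. Beside the 5 members these were Igf1, Insr, Igfbp3, Igfbp4, Igfbp6, Igfbp7, 8 genes of intracellular signalling and the output genes Slc2a4, Pck1 and G6pc. In TAL 20 of the 22 were tested, 1 rose (Pappa2) and 1 fell (G6pc), while 4.73% of all 317 genes tested were called. The median log2 fold change was -0.11 for the list against 0.0012 for all genes tested. In DCT 16 were tested and 1 rose (Slc2a4), with a median of -0.13 against -0.02, while 4.73% of all genes tested there were called. Counts this small do not set the list apart from the other genes. In the other 13 classes none was called; their list medians ran from -0.24 to 0.21.

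G6pc, the glucose-6-phosphatase of gluconeogenesis, fell in TAL to 143, 123 and 179 CPM in furosemide libraries 2, 4 and 6, against 485, 457 and 746 CPM in vehicle libraries 1, 3 and 5 (-1.80 ± 0.27 SE, edgeR adjusted p = 0.0177). Without furosemide library 2, furosemide library 4 or vehicle library 3 its adjusted p was 0.0795, 0.0577 and 0.0712. In Proximal s1/s2, the class of its highest level, it was at 16818, 26428 and 20026 CPM with furosemide and 12709, 14511 and 15819 CPM with vehicle, and was not called (0.53 ± 0.19 SE, adjusted p = 0.60). Igfbp1 thus shared with G6pc the signs of its fold changes in Proximal s1/s2 and in TAL, but of these values only that of G6pc in TAL was called. Pck1, another output gene of the list, did not share the sign in Proximal s1/s2. Its log2 fold change was -0.16 ± 0.28 SE there and -0.14 ± 0.20 SE in TAL, and it was called in neither (edgeR). The summed proximal markers in TAL, given above with Igfbp1, overlapped between groups, and the part of proximal RNA in the G6pc value was not tested. Igfbp3, another known substrate of Pappa2, was at 39.7, 9.57 and 1.36 CPM in TAL with furosemide and 27.8, 65.7 and 32.8 CPM with vehicle, and was not called (-1.32 ± 0.93 SE, adjusted p = 0.55).

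Slc2a4, the insulin-regulated glucose transporter, rose in DCT to 1101, 1436 and 998 CPM with furosemide, against 775, 569 and 703 CPM with vehicle (0.88 ± 0.15 SE, adjusted p = 0.0108). Without vehicle library 5 its adjusted p was 0.0529.

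The panel genes most like each member were ranked by Pearson correlation of log2(CPM + 1) over the 15 class means. The classes share libraries, so these are descriptions. Insrr was most like Slc26a4 (0.96), Cyp1a1 (0.96) and the anion exchanger Slc4a9 (0.95), all highest in BIC. Igfbp1 was most like G6pc (0.88), the glucose transporter Slc5a2 (0.86) and the phosphate transporter Slc34a3 (0.86), all highest in Proximal s1/s2. Pappa2 was most like Slc12a1 (0.82), the glucose transporter Slc5a1 (0.73) and the ligand Wnt5a (0.70). Igf1r was most like the basement membrane collagen Col4a3 (0.85), the metalloprotease inhibitor Timp3 (0.84) and the cation channel Trpc1 (0.84). Igfbp5 was most like the chaperone regulator Ahsa1 (0.85), Trp53inp1 (0.83) and the immunophilin Fkbp1a (0.81).

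In the GENCODE annotation of build GRCm38, Igfbp5 lies on the minus strand of chromosome 1 from 72857932 to 72874884 and Pappa2 on the same strand from 158711727 to 158980490. Insrr lies on the plus strand of chromosome 3 from 87796951 to 87816101, Igf1r on the plus strand of chromosome 7 from 67952827 to 68233668, and Igfbp1 on the plus strand of chromosome 11 from 7197782 to 7202546.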

How the data were processed

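BD Rhapsody libraries, from whole-transcriptome and targeted assays per the labels' protocols, were read as whole-number counts per cell and gene in the table deposited by the authors. Bowtie2 2.2.9 is named in the submitters' processing notes; the genome build, and what a count stands for (molecules or reads), are not given in the sources used here. Per the table's name, doublets and 1 mixed cluster were taken out and cell numbers equalized by the authors. The deposited annotation gave each cell's library, treatment and class.

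Counts were summed per library and class with at least 10 cells, filtered with filterByExpr and tested with edgeR 4.0.16 (TMM, robust quasi-likelihood, R 4.3.3), adjusted per class by Benjamini-Hochberg. Differences between classes were interaction terms with library as block. SE is the absolute log2 fold change over the square root of F. Positive shares were compared by two-sided exact permutation, with cells thinned to 500 counts, leaving out 548 furosemide and 735 vehicle cells below that. The steps were tested on simulated data. Alternatives were limma-voom (limma 3.58.1), DESeq2 1.42.0 and those named in the closing section; the Ptgs2 split and the finer classes were added after the data had been seen. Members, lists and markers were chosen with earlier results of these data known. All 5 members were described; other genes were named by their list or as the 3 most alike. Floors and shares cover counting error only.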

Additional observations from a re-analysis of the deposited data

How the results depend on the processing

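Pappa2 in TAL kept its direction and its call under all 14 alternatives, with log2 fold changes of 2.72 to 2.92 under other settings, 2.63 to 3.09 without 1 library, and adjusted p of at most 0.0405. Its share of positive TAL cells, 2.05 points higher after thinning, differed by 1.76 to 2.19 points under other settings and by 1.90 to 2.29 points without 1 library. Over all cells the Pappa2 call was lost with library size alone (1.97), no filter on low counts (2.03), limma-voom (1.997) and cells thinned to 500 counts (1.92), and without any 1 library (1.56 to 2.24); the cause was not tested. The 5 highest class levels stayed within their spread when taken as a mean over cells.

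The 1 member call became 1 to 2 without 1 library, and the 0 differences between classes became 0 to 2, each with the higher number without furosemide library 6. The 3 calls of the wider list became 2 to 5 without 1 library and 5 with DESeq2, which added Pck1 in BIC and Slc2a4 in CNT.

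Of the 37 fold changes of the other 4 members, 26 kept sign and side of the threshold under every alternative; of 494 alternatives 19 turned the sign and 2 brought a call, both given in the report. Insrr turned in CNT with a second clustering of the authors (0.45), in the class labelled OMCD principal with thinned cells (-0.62) and without the top 5% of cell totals (-0.18), in BIC with thinned cells (-0.0082), and over all cells with library size alone (-0.013) and thinned cells (-0.18). Without 1 library, Igf1r ran from -0.22 to 0.058 in TAL, from -0.34 to 0.072 in DCT2 and from -0.40 to 0.065 in Podocytes/Glom. Insrr ran from -1.36 to 0.20 in CNT, -0.20 to 0.44 in the class labelled OMCD principal, -0.0030 to 0.21 in BIC and -0.10 to 0.26 over all cells. Igfbp1 ran from -0.17 to 1.17 in Proximal s2/s3 and Igfbp5 from -0.12 to 0.035 over all cells. None of these values was called.

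No paired analysis was possible because the library numbers of the cells could not be joined to the replicate numbers of the samples. Depth limits the low genes: 44 of 75 member and class pairs had too few counts to be tested, and the smallest class held 12 cells in 1 library.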
